A study of Homo sapiens with 6 samples.

Results

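Metallothioneins are small cysteine-rich proteins that bind zinc and copper in the cytosol and nucleus and also take up cadmium and other toxic metals. In humans the MT1 genes, MT2A, MT3 and MT4 lie next to each other on chromosome 16. The 10 genes described here are those whose symbol in the array annotation is MT2A, MT3, MT4 or MT1 followed by a single letter, on rows that carry exactly 1 symbol: MT1B, MT1E, MT1F, MT1G, MT1H, MT1M, MT1X, MT2A, MT3 and MT4. They have 11 of the 32321 rows of the table and are 10 of the 18404 genes tested. MT2A has 2 rows, and the one with the higher mean over the 6 arrays stands for the gene. The family was selected on the BIX01294-minus-DMSO differences of these same arrays, in which MT1G, MT2A and MT1F were already known to be high, so all member values below are a description and carry no test.

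The arrays measured RNA of BE(2)-C cells (BE2C in the sample labels), a human neuroblastoma cell line that carries MYCN amplification, grown in medium with dialyzed serum. Treatment lasted 24 h in all 6 samples: 3 had BIX01294 at 5 µM, and 3 had DMSO, its solvent, at 0.05%. The labels record no DMSO content for the treated samples. BIX01294 inhibits EHMT1 and EHMT2, a pair of enzymes that methylate lysine 9 of histone H3. The series text calls the 3 samples of a treatment independent without saying whether they were separate cultures, so p-values measure the spread between these samples. One cell line was used, and the labels give no zinc, copper or cadmium treatment and no metal measurement.

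Transcription of most MT1 genes and of MT2A is switched on by the zinc-sensing factor MTF1, which binds short metal response elements in their promoters. The same factor raises SLC30A1, which pumps zinc out of the cell, and lowers SLC39A10, a zinc importer. Glucocorticoids and oxidative stress also raise metallothionein transcripts. MT3 is mainly a protein of the nervous system and responds little to metals, and MT4 is mainly made in stratified epithelia.

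The medians of the 6 arrays were 6.94 to 7.01 (log2), and arrays of a group differed from each other by a median of 0.083 to 0.116. Each row has its own probes, so levels are only a rough check of the labelled cell type. Of the adrenergic neuroblastoma markers 7 of 8 were measured, and 0 of the 7 lay below 5.99, the lower quartile of gene means. Of the 6 astrocyte markers 4 lay below it. Markers of mesenchymal or Schwann-like cells, another state such cultures can hold, were measured for 7 of 8 genes, with 2 below that quartile. The log2 values of these 7 summed to between 52.4 and 53.2 in the DMSO arrays and between 54.5 and 55.2 in the BIX01294 arrays, and 3 of the 7 rose in limma, where 12.9% of all genes rose: VIM (0.82, adjusted p 0.000132), CD44 (0.49, adjusted p 0.000696) and S100B (0.42, adjusted p 0.0177). S100B lost its call without BIX01294 replicate 1 (adjusted p 0.0514) or replicate 3 (adjusted p 0.0617). The other 4 did not pass: SNAI2 (0.21), PRRX1 (0.06), SOX10 (0.01) and FN1 (0.01). Of the 7 adrenergic markers 1 rose in limma, ISL1 (0.34, adjusted p 0.00372). Both GATA3 (-0.23, adjusted p 0.0190) and PHOX2A (-0.20, adjusted p 0.0413) fell. Of the 6 astrocyte markers 0 rose and 1 fell, ALDH1L1 (-0.22, adjusted p 0.0201). Over all genes 10.7% fell. These 3 falls lost their call without DMSO replicate 1 or BIX01294 replicate 3 (adjusted p 0.0721 to 0.134). The part of mesenchymal or Schwann-like cells in the metallothionein values was not tested. In RNA of whole cultures, a different number of cells of a type and a different amount of RNA per cell cannot be told apart.

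Of the 10 metallothionein genes, 9 were higher in BIX01294 than in DMSO with no overlap between the 3 treated and the 3 control arrays, and MT3 was the exception. Over all 18404 genes, 21.4% were higher in BIX01294 without overlap. In the limma fit across all genes, 9 of the 10 members passed an adjusted p of 0.05 as higher. Over all genes 12.9% did, and 23.6% passed in either direction. The family was chosen on these differences, so the member counts only describe the chosen genes and are no test. The log2 differences, BIX01294 minus DMSO, ran from -0.09 for MT3 to 3.13 for MT1G with a median of 0.97, and the median over all genes was -0.01. A difference of at least 1 was measured in 5 members and in 0.234% of all genes; one of the 5, MT1M, fell to 0.98 without BIX01294 replicate 1.

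**Figure D1:**
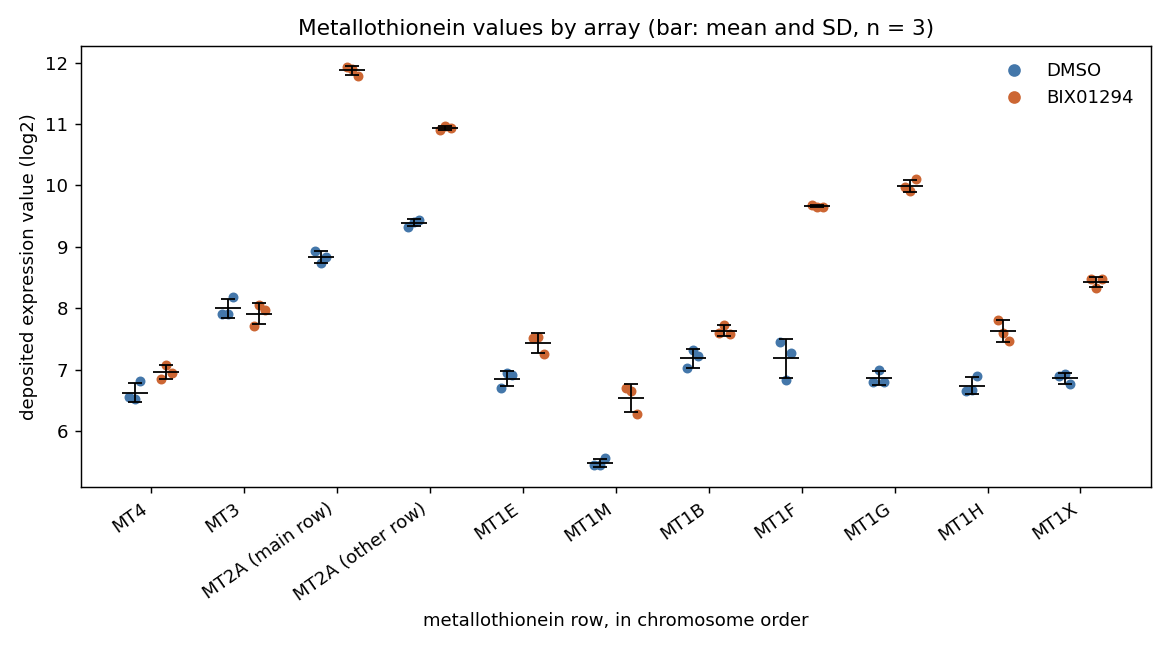
Deposited log2 expression value (vertical axis) of each metallothionein row in the 3 DMSO arrays (blue) and the 3 BIX01294 arrays (orange), in chromosome order, with the mean and SD (n = 3) as a bar. The groups are farthest apart in MT1G, the main row of MT2A and MT1F, and overlap only in MT3; heights of different rows are not comparable, since each row has its own probes.

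MT1G, MT2A and MT1F stood farthest from the controls. MT1G measured 6.81, 7.001 and 6.80 in DMSO replicates 1 to 3 and 9.97, 9.90 and 10.10 in BIX01294 replicates 1 to 3. Every treated array lay at least 2.90 above every control array, and the mean difference of 3.13 ± 0.079 (SE) was the largest rise of all 18404 genes. MT2A, the form made in most tissues, measured 8.93, 8.74 and 8.83 in DMSO and 11.92, 11.90 and 11.79 in BIX01294 on its main row. The difference was 3.04 ± 0.069 (SE), rank 2 of all genes, and the gap between the groups was 2.86. The 2 leading members differ by about as much as their standard errors, so their order is not settled.

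The second row of MT2A gave a smaller difference. It measured 9.33, 9.40 and 9.44 in DMSO and 10.91, 10.96 and 10.94 in BIX01294, a difference of 1.55 ± 0.056 (SE) in a fit over all rows. The direction was the same on both rows, and with the mean of the 2 rows MT2A differed by 2.29. The annotation gives both rows to MT2A. Probe sequences were not used, so signal of a related transcript on the second row was not tested. A single size for the MT2A change is therefore not given by these arrays.

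On the main rows MT1F was the next in size, but its difference exceeds that of MT2A on the second row or on the mean of both rows. Its values were 7.46, 6.83 and 7.26 in DMSO and 9.69, 9.65 and 9.66 in BIX01294, a difference of 2.48 ± 0.14 (SE) and rank 5 of all genes. The DMSO arrays of MT1F spread more (SD 0.32) than the BIX01294 arrays (SD 0.02), with DMSO replicate 2 the lowest. Leaving out single arrays moved the MT1F difference between 2.30 and 2.62.

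MT1X and MT1M followed. MT1X measured 6.90, 6.92 and 6.76 in DMSO and 8.47, 8.33 and 8.47 in BIX01294, a 2.96-fold difference and rank 10 of all genes. MT1X thus stood close together within each group, with a gap of 1.41 between the groups. MT1M measured 5.44, 5.44 and 5.56 in DMSO and 6.70, 6.65 and 6.27 in BIX01294, a difference of 1.06 ± 0.11 (SE). BIX01294 replicate 3 was the lowest treated array of MT1M, 0.79 above the control mean. The DMSO values of MT1M lie below the lower quartile of gene means, and the table gives no detection call, so its control level was not shown to be above background and no fold is given.

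MT1H, MT1E, MT1B and MT4 differed by less than 1 on the log2 scale. MT1H measured 6.65, 6.67 and 6.90 in DMSO and 7.81, 7.60 and 7.46 in BIX01294, a difference of 0.88 ± 0.10 (SE). MT1E measured 6.71, 6.94 and 6.92 in DMSO and 7.51, 7.53 and 7.25 in BIX01294, a difference of 0.58 ± 0.096 (SE). Both genes were higher in every treated array, by a gap of 0.56 for MT1H and 0.31 for MT1E. MT1B measured 7.02, 7.31 and 7.22 in DMSO and 7.60, 7.73 and 7.57 in BIX01294, a difference of 0.45 ± 0.086 (SE). MT4 measured 6.55, 6.52 and 6.81 in DMSO and 6.85, 7.08 and 6.95 in BIX01294, a difference of 0.33 ± 0.093 (SE). In MT4 the highest control array, replicate 3, came within 0.04 of the lowest treated array, replicate 1.

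MT3 did not separate the groups. It measured 7.91, 7.91 and 8.18 in DMSO and 7.72, 8.05 and 7.97 in BIX01294, a difference of -0.09 ± 0.11 (SE). The treated arrays lay on both sides of the control mean, and the sign of the difference turned without DMSO replicate 3 or without BIX01294 replicate 1, where it reached at most 0.01.

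On the main rows the differences ran, from high to low, MT1G, MT2A, MT1F, MT1X, MT1M, MT1H, MT1E, MT1B, MT4 and MT3, and the place of MT2A depends on its row. MT1G and MT2A, MT1M and MT1H, MT1E and MT1B, and MT1B and MT4 lay closer together than the sum of their standard errors, so the order within these pairs is not settled. The treated arrays did not share one order. BIX01294 replicate 1 was the highest treated array in 5 of the 10 genes, replicate 2 in 4 and replicate 3 in 1, and replicate 3 was the lowest in 5. For MT1M, MT1H and MT1E replicate 3 was the lowest of the treated arrays, and for MT1G it was the highest.

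**Figure D2:**
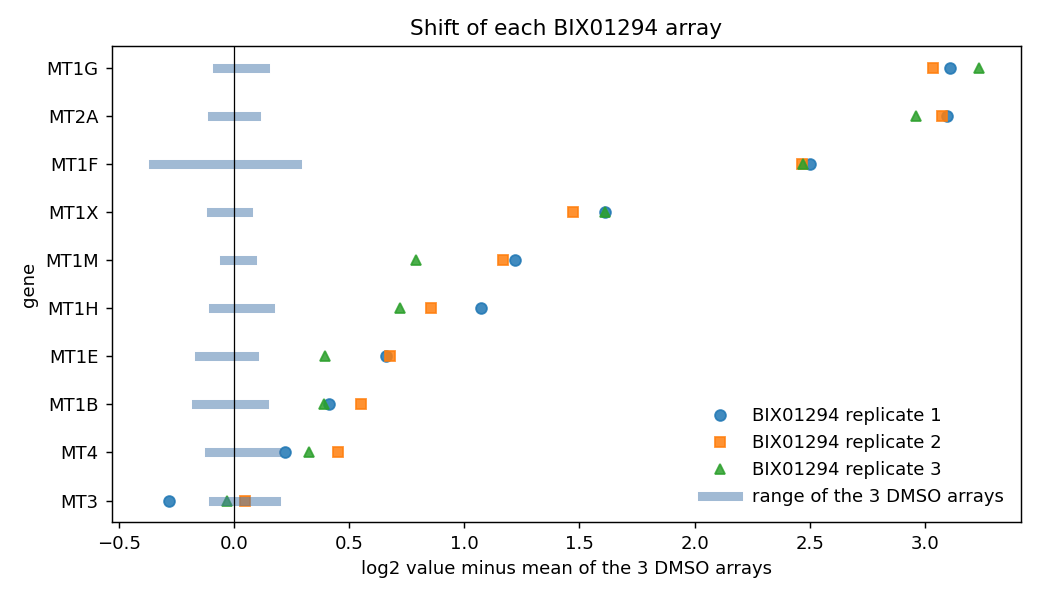
Log2 value of each BIX01294 array minus the mean of the 3 DMSO arrays (horizontal axis) for the 10 genes, with the range of the DMSO arrays around their mean as a bar. The 3 treated arrays lie between 3.04 and 3.23 for MT1G and between -0.28 and 0.05 for MT3, and replicate 3 lies below the other treated arrays in MT1M, MT1H and MT1E.

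Rows of metallothionein relatives outside the 10 genes were also higher. The annotation holds 4 MT1 pseudogenes on single-symbol rows, 3 of them inside the chromosome 16 cluster, and the MT1H-like gene MT1HL1. All 5 had no overlap between the groups, where 21.4% of all genes were higher without overlap. The gap between the groups was smallest for MT1IP (0.20) and MT1HL1 (0.22). MT1JP differed by 0.90 ± 0.16 (SE), MT1HL1 by 0.70 ± 0.18 (SE), MT1P3 by 0.70 ± 0.062 (SE), MT1DP by 0.68 ± 0.079 (SE) and MT1IP by 0.40 ± 0.10 (SE), in the fit over all rows. MT1HL1 lies on chromosome 1 and MT1P3 on chromosome 20. Metallothionein genes and pseudogenes are close in sequence, and probe sequences were not used here, so signal of one transcript on the row of another was not tested and the smaller differences, those of MT4, MT1B and MT1E included, are uncertain in their gene of origin.

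The members were set beside the genes that flank them on chromosome 16. In the order of RefSeq genes (GRCh38.p14), the measured members run MT4, MT3, MT2A, MT1E, MT1M, MT1B, MT1F, MT1G, MT1H and MT1X. The large differences were not at one end: MT2A, next to MT3, and MT1G and MT1F, on the far side of MT1B, stood apart, with smaller differences between them. Of the 10 nearest measured genes on each side, 2 rose and 4 fell in limma, against 12.9% and 10.7% of all genes, and their median difference was -0.01. The nearest on one side, BBS2, a protein of the primary cilium, measured 8.23, 8.30 and 8.03 in DMSO and 7.65, 7.69 and 7.70 in BIX01294 and fell (-0.51 ± 0.075 SE, adjusted p 0.00218). The nearest on the other side, the nuclear pore protein NUP93, measured 10.90, 10.97 and 10.85 in DMSO and 11.24, 11.29 and 11.20 in BIX01294 and rose (0.34 ± 0.057 SE, adjusted p 0.00407). HERPUD1, a helper of protein degradation at the endoplasmic reticulum, fell by 1.01 on the log2 scale (adjusted p 4.32e-05 in limma), and ARL2BP rose by 0.33 (adjusted p 0.00573). Without DMSO replicate 1, 2 of the flanking genes fell.

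**Figure D3:**
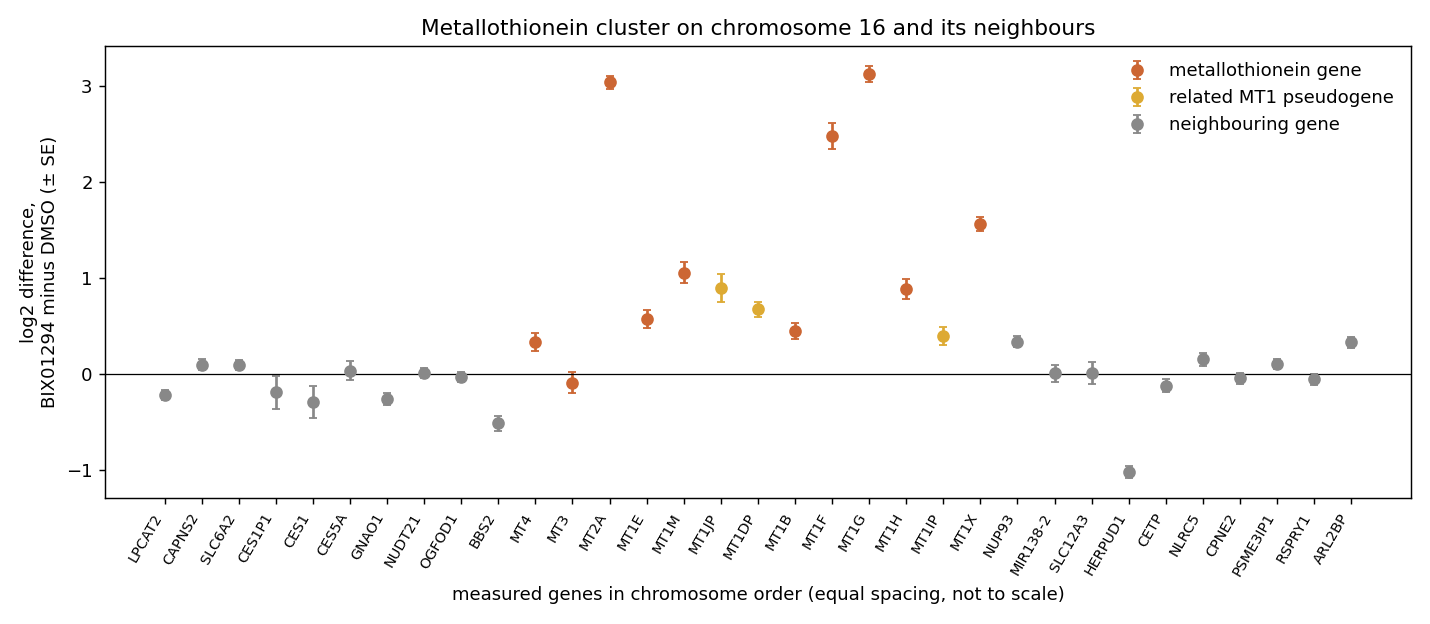
Log2 difference, BIX01294 minus DMSO, with its SE for the measured genes of the metallothionein cluster (orange), MT1 pseudogenes inside it (yellow) and the 10 nearest measured genes on each side (grey), in chromosome order with equal spacing. MT2A, MT1F, MT1G and MT1X reach 1.56 or more, while the flanking genes lie between -1.01 and 0.34.

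Promoter sequences were set beside the values because metal response elements are the best known control sites of this family. RefSeq promoter entries of GRCh38.p14 were matched for 5 members: MT2A, MT1X, MT1H, MT1B and MT4. The promoter set held no entry under the symbols MT1E, MT1F, MT1G, MT1M and MT3. The promoters of MT1G and MT1F, both with large differences, were therefore not looked at. The core of the element was searched as TGCACNC and TGCGCNC, where N is any base, on both strands of the 250 bases before the gene start; the 2 patterns cannot match at the same place on 1 strand. At least 1 match was found in 24.8% of all 35116 promoters, at least 3 in 1.58% and at least 4 in 0.37%. MT1H held 8 matches, MT2A 7, MT1X 4, MT1B 3 and MT4 3. The following 4 promoters are those with the most matches and, for contrast, that of MT4, all on the plus strand, 5′ to 3′, with the matches in capitals on whichever strand they lie. They are chr16:56608334-56608583 (MT2A), chr16:56682220-56682469 (MT1X), chr16:56669564-56669813 (MT1H) and chr16:56564823-56565072 (MT4).
MT2A: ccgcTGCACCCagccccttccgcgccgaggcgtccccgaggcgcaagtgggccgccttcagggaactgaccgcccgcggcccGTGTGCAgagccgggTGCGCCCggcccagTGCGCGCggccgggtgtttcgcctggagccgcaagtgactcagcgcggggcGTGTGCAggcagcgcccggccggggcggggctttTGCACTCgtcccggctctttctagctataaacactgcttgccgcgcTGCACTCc
MT1X: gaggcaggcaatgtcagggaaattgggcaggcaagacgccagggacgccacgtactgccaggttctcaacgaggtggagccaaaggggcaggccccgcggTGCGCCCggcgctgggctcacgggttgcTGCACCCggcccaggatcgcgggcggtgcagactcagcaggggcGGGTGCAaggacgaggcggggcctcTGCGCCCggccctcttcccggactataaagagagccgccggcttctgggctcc
MT1H: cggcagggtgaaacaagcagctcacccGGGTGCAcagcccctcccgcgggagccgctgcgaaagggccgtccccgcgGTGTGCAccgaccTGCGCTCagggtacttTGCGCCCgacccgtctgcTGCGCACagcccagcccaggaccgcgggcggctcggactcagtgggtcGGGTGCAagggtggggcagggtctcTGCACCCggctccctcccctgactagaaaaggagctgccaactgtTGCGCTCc
MT4: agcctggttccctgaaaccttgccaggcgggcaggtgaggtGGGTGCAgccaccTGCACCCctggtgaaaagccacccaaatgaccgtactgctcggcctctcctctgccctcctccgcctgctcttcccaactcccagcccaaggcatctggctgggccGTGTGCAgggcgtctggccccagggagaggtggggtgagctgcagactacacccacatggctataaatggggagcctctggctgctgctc

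The matches near the gene start recur at matching distances. In MT1X, MT1H and MT1B a match spans -53 to -47 from the start, and in MT2A one spans -54 to -48. MT1X and MT1H also share a match on the opposite strand at -78 to -72. MT4 has none as near to its start: its nearest spans -90 to -84. The TATA box letters TATAAA, found on either strand in 10.7% of all promoters, lie at -30 to -25 in MT1X and MT1B and at -29 to -24 in MT2A and MT4, and were not found in the MT1H window. The number of matches did not run in the order of the differences: MT1H, with 8, differed by 0.88, MT2A, with 7, by 3.04, MT1X, with 4, by 1.56, MT1B, with 3, by 0.45, and MT4, with 3, by 0.33. A match is a description of the letters and no evidence of binding, and 5 promoters are too few for a relation.

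**Figure D4:**
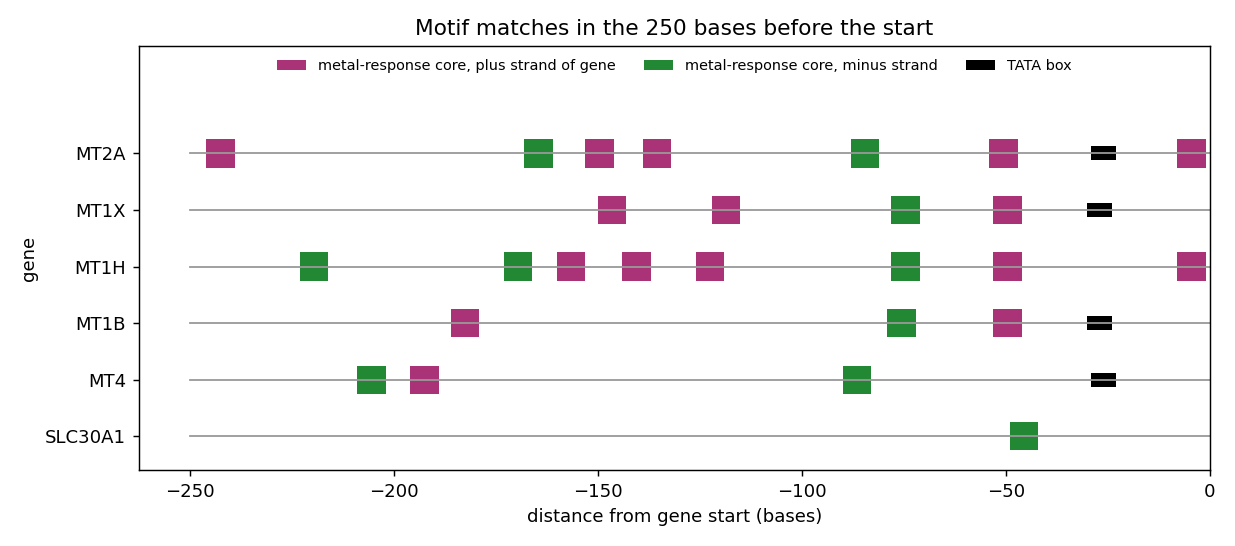
Matches to the metal response core (coloured by strand) and to the TATA box (black) in the 250 bases before the start of 5 metallothionein genes and of SLC30A1, by distance from the start in bases. MT1H and MT2A hold 8 and 7 core matches and SLC30A1 holds 1; MT2A, MT1X, MT1H and MT1B each have a match that covers -53 to -48 from the start.

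The zinc-sensing factor and its other targets were next. MTF1 measured 8.75, 8.74 and 8.67 in DMSO and 8.68, 8.69 and 8.80 in BIX01294, a difference of 0.00 ± 0.058 (SE) that did not pass the test (adjusted p 0.978 in limma). The arrays measure its transcript, not its activity. SLC30A1, the zinc exporter of the plasma membrane, measured 7.73, 7.49 and 7.53 in DMSO and 8.75, 8.77 and 8.77 in BIX01294 and rose 2.27-fold (1.18 ± 0.071 SE, adjusted p 4.21e-05). Its groups lay about 1 log2 unit apart without overlap, and its promoter held 1 match to the core. SLC39A10 measured 10.59, 10.63 and 10.60 in DMSO and 10.35, 10.38 and 10.38 in BIX01294 and fell by 0.24 on the log2 scale (adjusted p 0.0111 in limma). Of the 11 genes of the list of MTF1 and MTF1-linked genes, 2 rose, 1 fell and 8 did not pass, with a median of 0.05; these shares are near the 12.9% higher and 10.7% lower of all genes. The second gene that rose, GCLC, a subunit of the enzyme that starts glutathione synthesis, differed by 0.31 (adjusted p 0.0302 in limma) and lost its call without DMSO replicate 1 (adjusted p 0.0574), BIX01294 replicate 2 (adjusted p 0.0853) or BIX01294 replicate 3 (adjusted p 0.0905).

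Apart from SLC30A1, zinc transporters differed little. Most SLC30 proteins move zinc out of the cytosol. Of 10 SLC30 genes, 2 rose and none fell in limma (0 lower at an unadjusted p under 0.05). The second that rose, SLC30A5 of the secretory pathway, differed by 0.25 (adjusted p 0.0200 in limma). SLC30A5 lost its call without DMSO replicate 1 (adjusted p 0.0556), BIX01294 replicate 1 (adjusted p 0.0581) or BIX01294 replicate 3 (adjusted p 0.0699). Of 14 SLC39 genes, which move zinc into the cytosol, 2 rose and 1 fell: SLC39A6 rose by 0.32 (adjusted p 0.00766), SLC39A7, which releases zinc from the endoplasmic reticulum, rose by 0.27 (adjusted p 0.00882), and SLC39A10 fell. These shares are near those of all genes, 12.9% higher and 10.7% lower, and the lists' medians were 0.04 and 0.00. Of 10 measured copper-handling genes (11 were listed) none rose and 2 fell by about 0.2. They were CCS, the copper chaperone of superoxide dismutase (adjusted p 0.0246 in limma), and the copper pump ATP7A (adjusted p 0.0353). At an unadjusted p under 0.05, 3 copper genes were higher. Leaving out DMSO replicate 3 left 1 of these falls, and leaving out any other array left 0; with genes below the median level left out, 3 copper genes rose.

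**Figure D5:**
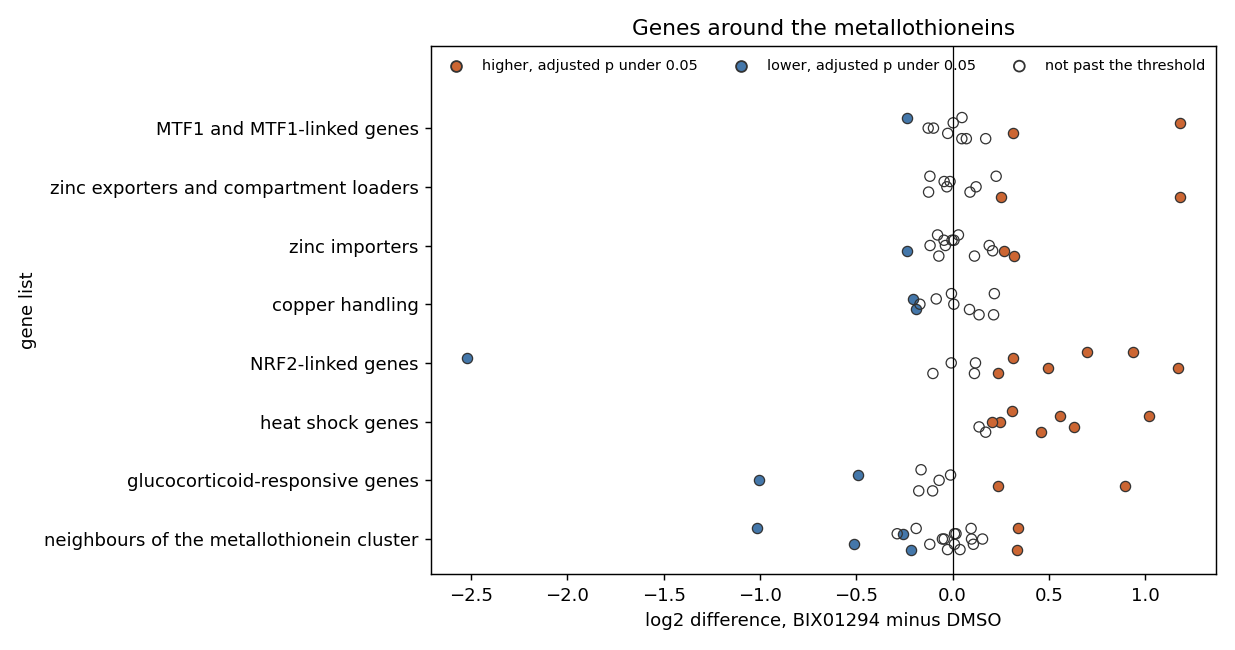
Log2 difference, BIX01294 minus DMSO, of each measured gene (point) in the lists around the metallothioneins; filled points passed an adjusted p of 0.05 in limma as higher (orange) or lower (blue), and vertical offsets within a list only keep points apart. SLC30A1 stands alone at 1.18 among the zinc transporters, and 7 of the 9 heat shock genes are filled as higher.

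Stress and hormone lists that share inducers with metallothioneins moved unevenly; over all genes, 12.9% rose and 10.7% fell. Of 11 listed heat shock genes 9 were measured, and HSPA1A and HSPA1B were not. Of the 9, 7 rose and none fell in limma (0 lower at an unadjusted p under 0.05), with a median of 0.31. All 9 had DMSO means of at least 8.70, above the median of gene means, 7.53. With genes below that median left out, fewer genes were tested, yet more rose. They were 2850, the 9 heat shock genes among them, against 2379 in the fit over all genes. The share over all genes is thus low for genes of this level. The adrenergic markers, with DMSO means of at least 9.32, also lie above that median. The chaperone HSPH1 measured 10.55, 10.67 and 10.45 in DMSO and 11.56, 11.54 and 11.63 in BIX01294 and rose 2.03-fold (adjusted p 7.00e-05 in limma). The co-chaperone DNAJB1 rose 1.55-fold, HSPA4L 1.47-fold and BAG3 1.38-fold. Of 11 measured NRF2-linked genes (13 were listed), which answer oxidative stress, 6 rose and 1 fell, with a median of 0.24. The quinone reductase NQO1 measured 9.44, 9.25 and 9.17 in DMSO and 10.45, 10.42 and 10.51 in BIX01294 and rose 2.25-fold (adjusted p 6.43e-05). GCLM, the other subunit of the enzyme that starts glutathione synthesis, rose 1.92-fold and the sulfiredoxin SRXN1 1.62-fold, while the cystine transporter SLC7A11 fell 5.74-fold. HMOX1, the heme oxygenase that cadmium and heme raise, measured 6.75, 6.91 and 6.87 in DMSO and 7.02, 6.91 and 6.94 in BIX01294 and did not pass (0.11 ± 0.064 SE, adjusted p 0.255); it was named after its value was seen.

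Glucocorticoid-responsive genes did not share a direction. Of 10 listed genes 9 were measured, and FKBP5 was not. Of the 9, 2 rose and 2 fell, where 12.9% of all genes rose and 10.7% fell, with a median of -0.10. TSC22D3, the glucocorticoid-induced leucine zipper protein, measured 10.04, 10.03 and 9.93 in DMSO and 9.11, 8.95 and 8.92 in BIX01294 and fell 2.01-fold (adjusted p 7.84e-05 in limma). The kinase SGK1 rose 1.86-fold and the transcription factor KLF9 fell by 0.49 on the log2 scale. The phosphatase DUSP1 differed by 0.23 (adjusted p 0.0326) and lost its call on leaving out DMSO replicate 2 or 3 or any BIX01294 replicate (adjusted p 0.0657 to 0.0953). The receptor itself, NR3C1, was low (5.26, 5.33 and 5.28 in DMSO) and did not pass (-0.16 ± 0.055 SE, adjusted p 0.0665); it too was named after its value was seen.

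The genes most like the family were found by correlation. Each member's values were centred on their own mean and averaged, and this profile was correlated over the 6 arrays with the 243 other genes whose values spanned at least 1 log2 unit. The 5 highest were S100A10, FABP3, SQSTM1, MGP and GAL, with Pearson's r from 0.996 to 0.998. All 6 arrays fall into 2 groups by treatment, so any gene with a large rise and a small spread has a high r here. S100A10, a calcium-binding family member and annexin partner, measured 10.32, 10.19 and 10.30 in DMSO and 12.37, 12.28 and 12.23 in BIX01294. FABP3, a fatty acid-binding protein, measured 6.48, 6.28 and 6.48 in DMSO and 9.56, 9.39 and 9.36 in BIX01294, about as large a difference (3.02) as that of MT2A. The other 3 differed by 1.04 (SQSTM1, an autophagy cargo receptor), 1.93 (MGP, matrix Gla protein) and 1.14 (GAL, the neuropeptide galanin). These 5 genes lie on chromosomes 1, 5, 11 and 12, none on chromosome 16.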

How the data were processed

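RNA of 6 BE(2)-C samples was hybridised to Affymetrix gene-level arrays, 1 array per sample, with terminal labelling of the target, per the labels' protocols. The authors deposited log2 values, 1 per transcript cluster and array, made with Partek per the submitters' processing notes; the log2 scale was read from their range. How background, scaling and summarization were done is not stated in those notes. Of 32321 rows, 19158 had 1 gene symbol, updated to RefSeq symbols through Entrez identifiers for 19128; 1388 had several and 11775 none in the table used. The brightest row stood for each of 18404 genes.

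The deposited values were fitted without rescaling in limma 3.58.1 (R 4.3.3; treatment as the only term, empirical Bayes, two-sided, Benjamini-Hochberg over 18404 genes, threshold 0.05); adjusted p-values are from this fit. The fit was tested on simulated data. The number of arrays limits the precision. Differences are BIX01294 minus DMSO. The members, gene lists and naming rule were chosen with earlier results of these data known. Named are all members, MTF1, SLC30A1 and the 5 most alike genes. In each list up to 4 genes past the threshold are named, and the flanking genes count as a list. Outside this rule, HMOX1, NR3C1 and the mesenchymal or Schwann-like markers that did not pass are named too. The plan spoke of 7 members; the symbol rule finds 10, and all are used. Both groups carry the numbers 1 to 3, but same-numbered arrays did not deviate together (r = 0.193, -0.176 and 0.054), so no pairing was used.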

Additional observations from a re-analysis of the deposited data

Results flagged for a closer look

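A row outside the comparisons, which carries several symbols, one of them of the metallothionein pattern, also stood above the control arrays: it measured 7.02, 7.28 and 7.51 in DMSO and 9.27, 8.76 and 9.07 in BIX01294, a log2 difference of 1.76. It names no single gene.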

How the results depend on the processing

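Of 135 member values recomputed under 14 alternatives, 1 moved by more than the spread between replicates (MT2A, 2.29 with the mean of its rows), and no sign turned except that of MT3. The family median of 0.97 became 2.48 with genes below the median level left out, a filter that keeps 5 members, of which MT1F, MT1G and MT1X pass only through their high BIX01294 values, so that this rise is built in; it ran from 0.88 to 1.08 with single arrays left out. Quantile normalization gave 2 lower MTF1-linked genes and 1 lower SLC30 gene. The intensity trend gave 4 higher SLC30 genes and 2 higher copper genes. Centring gave 1 higher and 0 lower copper genes. Leaving out genes below the lower quartile gave 1 higher copper gene, and leaving out genes below the median level gave 3 higher copper genes and 1 lower glucocorticoid-responsive gene. The replicate block gave 0 lower copper genes and 3641 called genes against 4349, and not every array correlated best with its own number. With single arrays left out, 1 to 2 MTF1-linked genes, 1 to 2 SLC30 genes and 1 to 2 glucocorticoid-responsive genes were higher. In the same fits 0 to 1 copper genes and 2 to 4 flanking genes were lower. Without a detection call, dim levels were not told apart from background.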
